A study of Mus musculus with 12 samples.

Results

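Tumor necrosis factor (TNF), its receptors and the proteins that attach directly to those receptors were followed at the RNA level through 10 mouse genes: the ligands Tnf and Tnfsf9, the receptors Tnfrsf1a, Tnfrsf1b, Tnfrsf9 and Fas, and the receptor-proximal proteins Traf1, Traf2, Ripk1 and Birc3. They were taken as the rows of the count tables whose Ensembl identifiers carry these symbols in the GRCm38 annotation, which gave 10 of 55487 genes. All 10 passed the filter on low counts in both experiments. A further 90 genes of the pathway, in 6 lists by role, were read beside them.

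Bone marrow-derived macrophages (BMMs) came from C57BL/6 mice, female according to the methods, that had been ovariectomized (OVX, 3 libraries) or sham-operated (sham, 3 libraries), and were grown with macrophage colony-stimulating factor. Ovariectomy removes the source of ovarian estrogen and serves as a model of postmenopausal bone loss. Mesenchymal stem cells (MSCs), the adherent marrow cells of C57BL/6 mice at passage 3, were cultured alone (MSC, 2 libraries), with RAW264.7 cells (MSC+RAW-TW, 2 libraries) or with RAW264.7 cells stimulated with lipopolysaccharide, LPS (MSC+RAW-LPS-TW, 2 libraries). RAW264.7 is a mouse macrophage line. LPS is a bacterial cell wall product sensed by Toll-like receptor 4, and TW marks culture across a porous Transwell membrane. The labels gave limbs as the tissue and 8 weeks as the age of every sample, and the methods place the operation at the same age. The methods do not name the animals behind each library. P-values therefore measured the spread between these libraries, which may be technical.

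TNF is made as a membrane protein and shed as a soluble cytokine. TNFR1, encoded by Tnfrsf1a, is found on most cells and carries a death domain that gathers TRADD, RIPK1, TRAF2 and the ubiquitin ligases cIAP1 and cIAP2, the latter encoded by Birc3. TNFR2, encoded by Tnfrsf1b, lacks a death domain and binds TRAF2 and TRAF1 directly. Both receptors can activate NF-κB, whose known target genes include Tnf itself, Traf1, Birc3 and the brake Tnfaip3. In bone, TNF acts on osteoclast precursors and on osteoblast-lineage cells and is linked to the bone loss that follows estrogen deficiency.

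Stretches of regulatory sequence are shown because the RNA levels below fall on genes long studied for control by these elements. RefSeq windows of 250 bases before the annotated start (GRCm38.p6) were matched for 9 of the 10 genes, in 11 windows, with Tnfsf9 unmatched. Both strands were searched for the NF-κB consensus, for TATAAA, for GGGCGG and for the AP-1 type motif TGANTCA. Matches are in capitals, and overlapping matches are merged. The windows of Tnf (chr17:35202008-35202257, minus strand), of the downstream start of Tnfrsf9 (chr4:150927749-150927998, plus strand) and of Tnfrsf1a (chr6:125349473-125349722, plus strand) read as follows.
Tnf: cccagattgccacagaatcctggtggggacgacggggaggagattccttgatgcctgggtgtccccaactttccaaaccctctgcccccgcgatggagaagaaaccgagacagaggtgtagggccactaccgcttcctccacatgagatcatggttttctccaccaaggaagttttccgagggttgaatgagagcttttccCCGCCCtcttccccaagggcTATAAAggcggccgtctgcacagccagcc
Tnfrsf9: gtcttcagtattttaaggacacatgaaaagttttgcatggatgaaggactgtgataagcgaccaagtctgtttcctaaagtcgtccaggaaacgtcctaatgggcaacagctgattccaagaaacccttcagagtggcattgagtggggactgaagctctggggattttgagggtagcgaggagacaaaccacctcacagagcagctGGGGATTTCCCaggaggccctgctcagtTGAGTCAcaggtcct
Tnfrsf1a: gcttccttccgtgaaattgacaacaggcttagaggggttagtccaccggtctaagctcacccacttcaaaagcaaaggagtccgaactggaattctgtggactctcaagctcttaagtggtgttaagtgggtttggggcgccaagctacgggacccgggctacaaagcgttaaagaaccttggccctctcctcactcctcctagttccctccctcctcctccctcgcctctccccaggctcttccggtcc

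The Tnfrsf9 window held the only match to the NF-κB consensus among the 11 windows, 43 to 33 bases before the start. Of all 32851 windows in the table, 3.90% held such a match. The same window held TGAGTCA close to the start, and 6.75% of all windows held TGANTCA. Tnf had TATAAA beginning 29 bases before its start, a motif found in 12.4% of all windows. It also had GGGCGG, found in 32.7%, on the strand opposite to the printed one, where it reads CCGCCC as printed. The Tnfrsf1a window held none of these motifs. These matches describe letters in short windows, and no binding was measured.

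The messenger RNA of Tnf also carries an AU-rich element in its 3′ untranslated region, the docking site of tristetraprolin (Zfp36) and its relatives. Its densest 30 bases, at chr17:35199679-35199708 on the minus strand of GRCm38, are shown with each ATTTA in capitals.
Tnf AU-rich element: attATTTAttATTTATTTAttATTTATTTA
The longest annotated 3′ untranslated region of Tnf held 8 copies of ATTTA in 764 bases, a number reached or passed by 10.5% of 21020 coding genes. Ripk1 and Birc3 held 7 copies each, in 4365 and 1525 bases. Tnfrsf1a and Fas held 0 copies.

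Levels are given as CPM, the counts of a gene relative to the size of its library, scaled between the libraries of an experiment by the TMM method. The BMM and MSC tables were scaled separately, and these levels are not compared between them. A gene was called when its fold was at least 2 and its Benjamini-Hochberg adjusted p, over all genes tested, was at most 0.05. Libraries held 17012923 to 45367105 counts. The counts of sham replicates 2 and 3 differed only by a low and flat multiple of sampling noise, a median chi-square ratio of 2.50 at low and 2.70 at high counts. The same held for the MSC+RAW-TW libraries, at 3.08 and 3.18, while other pairs reached 15.1 to 75.5 at high counts. Each of these pairs was summed and counted as 1 sample, which left n = 3 OVX, 2 sham, 2 MSC, 1 MSC+RAW-TW and 2 MSC+RAW-LPS-TW. The lone MSC+RAW-TW sample was assumed to vary like the other groups. Relative to the gene means, log2 CPM followed GC content in opposite ways in sham (Spearman's rho across genes 0.226 to 0.591) and OVX libraries (-0.667 to -0.363), and in MSC+RAW-TW (0.466 to 0.468) and the other MSC libraries (-0.383 to -0.198). The part of this trend in the results was not tested beyond the fits with it removed. For the ligands, receptors and receptor-proximal genes followed here, these fits are mentioned where they change a call. For the other genes of the pathway only numbers of calls are given, for OVX against sham and for MSC+RAW-TW against MSC. Which of those named genes lost their call is therefore not shown.

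The marker genes of the cells were checked first. All 12 macrophage markers were above 3 counts in every group, and their summed level was 55220 to 59920 CPM in sham and 41200 to 45710 CPM in OVX libraries. The 13 stromal markers summed to 7527 to 8063 CPM in sham and 7669 to 8286 CPM in OVX libraries, with Col1a2 and Col1a1, the chains of type I collagen, leading. In the libraries labelled MSC the macrophage markers summed to 27520 to 27540 CPM and the stromal markers to 2853 to 3015 CPM. Lyz2, a myeloid lysozyme, stood at 21600 to 21690 CPM and Ptprc (CD45), a pan-leukocyte marker, at 167 to 171 CPM in the MSC libraries. Among the stromal markers there, Thy1, a usual marker of cultured MSCs, was at 0.293 to 0.449 CPM, while Ly6a (Sca-1) was at 200 to 229 CPM, Pdgfrb at 157 to 161 CPM and Cxcl12 at 328 to 354 CPM. The libraries labelled MSC thus held macrophage genes at high levels beside stromal ones, and are called MSC here after the label alone. The BMM libraries held stromal genes beside macrophage ones, and their name is likewise not a statement of purity. In bulk RNA, fewer cells of a type and less RNA per cell cannot be told apart.

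**Figure D1:**
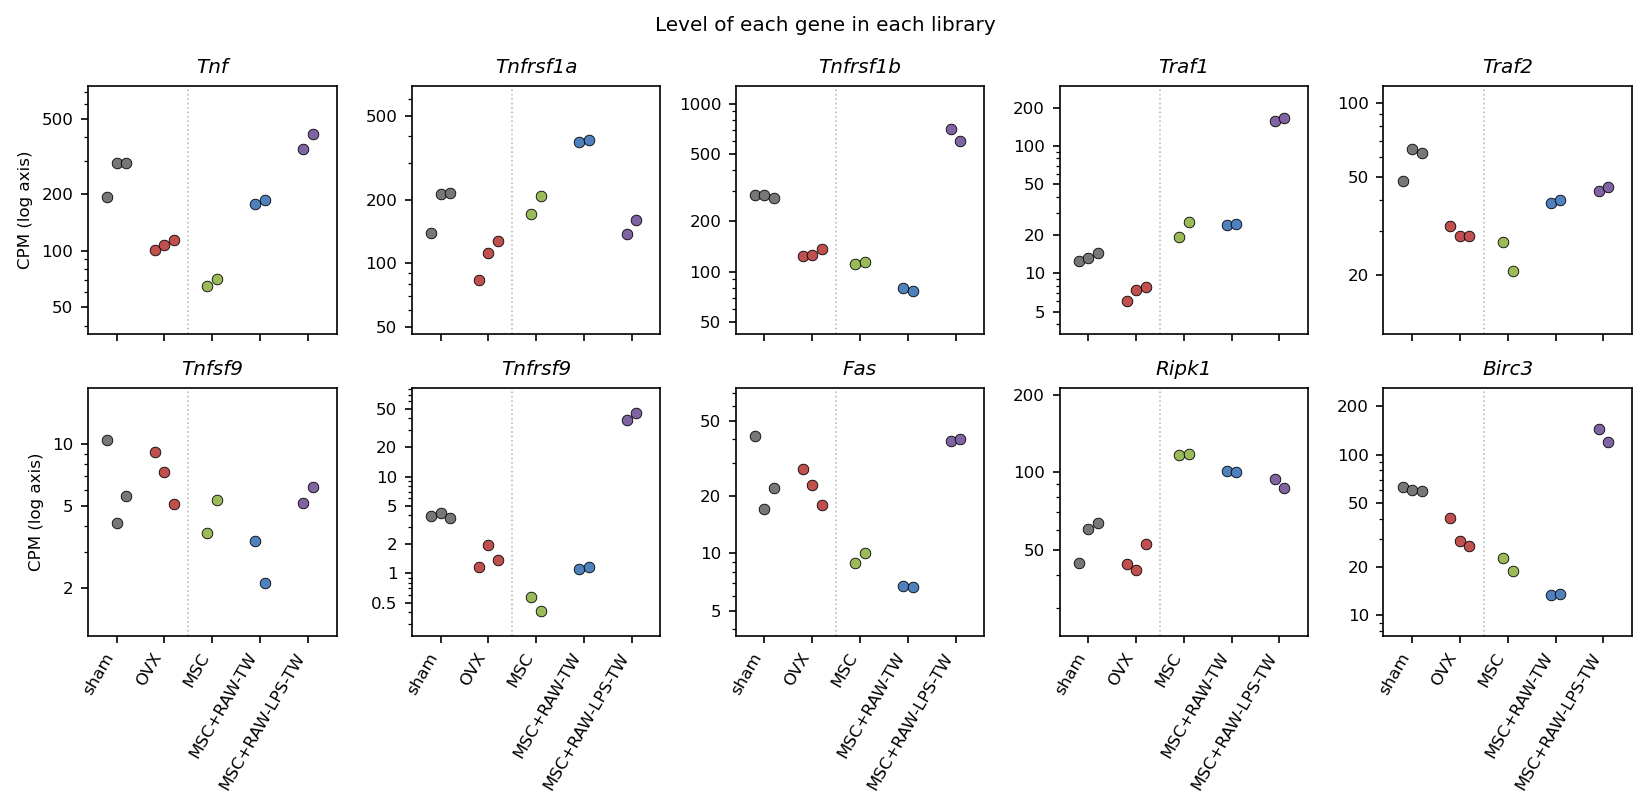
Level of each of the 10 genes in CPM, on a log axis with its own range for each gene, in every library (1 point each) of the sham, OVX, MSC, MSC+RAW-TW and MSC+RAW-LPS-TW groups; the dotted line parts the 2 separately scaled experiments. OVX points overlap sham points for Tnfsf9, Fas and Ripk1 and lie below them for the other genes shown. MSC+RAW-LPS-TW points lie above all other MSC-experiment points for Tnf, Tnfrsf1b, Traf1, Tnfrsf9, Fas and Birc3, and for Traf2 by a narrow margin. How often other genes part in these ways was not tested.

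In BMM libraries from OVX mice, Tnf and the receptors Tnfrsf1b and Tnfrsf9 were measured at lower levels than in those from sham mice. These 3 of 10 genes were called, all lower, against 8.46% of the 16768 genes tested that were called in either direction and 3.08% that were called lower. With no fold limit, 6 of 10 passed the adjusted p, against 13.1% of all genes, and again all were lower. None of the 10 fold changes lay above 0. Their median was -0.92 on the log2 scale, against -0.01 over all genes tested.

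Tnf stood at 193, 294 and 291 CPM in sham replicates 1 to 3 and at 101, 107 and 114 CPM in OVX replicates 1 to 3. The groups did not overlap, and sham replicate 1 was the lowest of the sham libraries. The log2 fold change of Tnf was -1.19 ± 0.21 (SE), a fold of 2.28 lower in OVX (adjusted p = 0.0130). Tnfsf9, the ligand of the costimulatory receptor 4-1BB, was measured at 10.5, 4.11 and 5.57 CPM in sham and 9.20, 7.37 and 5.12 CPM in OVX libraries. Its groups overlapped, its log2 fold change was -0.10 ± 0.37 (SE, adjusted p = 0.883), and the sign turned in 6 of 16 alternative analyses.

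Of the receptors, Tnfrsf1b was tightly grouped, at 287, 285 and 275 CPM in sham and 124, 126 and 136 CPM in OVX libraries. It fell by 1.15 on the log2 scale in OVX (SE 0.17, adjusted p = 0.00790). Tnfrsf1a stood at 139, 214 and 216 CPM in sham and 83.5, 112 and 128 CPM in OVX libraries. Every OVX library lay below every sham library, but the log2 fold change of -0.73 ± 0.25 (SE) did not pass the test (adjusted p = 0.0971). Tnfrsf9, the receptor 4-1BB, was scarce at 3.73 to 4.24 CPM in sham and fell by 1.39 on the log2 scale to 1.16 to 1.96 CPM in OVX libraries (SE 0.32, adjusted p = 0.0287). The death receptor gene Fas ranged from 17.2 to 41.2 CPM in sham and from 17.9 to 27.8 CPM in OVX libraries, with overlap, and its log2 fold change was -0.43 ± 0.32 (SE, adjusted p = 0.403).

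Among the receptor-proximal proteins, 3 of 4 passed the adjusted p with folds under 2, against 13.1% of all genes that passed it at any fold. Traf2, the adaptor used by both TNF receptors, was at 48.2, 64.9 and 62.5 CPM in sham and 31.4, 28.6 and 28.6 CPM in OVX libraries (log2 fold change -0.93 ± 0.19 SE, adjusted p = 0.0187). Traf1, a partner of TRAF2 that lacks its RING domain, went from 12.5 to 14.5 CPM in sham to 6.03 to 7.85 CPM in OVX libraries (-0.91 ± 0.22 SE, adjusted p = 0.0308). Birc3 ranged from 59 to 63.3 CPM in sham and from 26.9 to 40.6 CPM in OVX libraries (-0.94 ± 0.22 SE, adjusted p = 0.0276). No OVX library of these 3 genes reached a sham library. Ripk1, the kinase that sits at the branch between survival and death signals, overlapped between the groups at 44.7 to 63.4 CPM in sham and 42.1 to 53.0 CPM in OVX libraries (-0.22 ± 0.21 SE, adjusted p = 0.533).

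The macrophage marker sum was also lower in the OVX libraries, as given above, but most of it was Lyz2, at 48310 to 51550 CPM in sham and 36080 to 40430 CPM in OVX libraries, which was not called. The macrophage markers went both ways, with a median log2 fold change of -0.52 over the 12, against -0.01 over all genes tested. Of the 12, 2 were called lower, Fcgr1 and Adgre1 (F4/80, 1549 to 2630 CPM in sham and 613 to 1254 CPM in OVX libraries), and 1 was called higher, the mannose receptor gene Mrc1 (49.6 to 50.7 CPM in sham and 175 to 250 CPM in OVX libraries). The osteoclast markers summed to 456 to 601 CPM in sham and 261 to 270 CPM in OVX libraries, and 3 of the 5 tested were called lower. The neutrophil markers summed to 807 to 943 CPM and 1197 to 1331 CPM, with 0 of 8 called. Of 3 dendritic cell markers tested, 1 was called lower. The B cell markers, mostly Cd79b, of which 2 of 5 were called lower, summed to 20 to 22.8 CPM in sham and 8.53 to 9.44 CPM in OVX libraries. Ribosomal RNA took 3.22% to 5.70% of counts in sham and 2.56% to 2.78% in OVX libraries, and mitochondrially encoded genes took 0.769% to 1.12% and 1.05% to 1.72%, with overlap. The part of these shifts in the lower Tnf-related levels was not tested. The count of called genes moved with single libraries, as did the share of all genes called. It was 5 without sham replicate 1 (13.5% of all genes called), 2 without OVX replicate 1 (4.13%) or OVX replicate 3 (7.79%), and 0 without OVX replicate 2 (1.9%), where Tnf, Tnfrsf1b and Tnfrsf9 had adjusted p of 0.0762, 0.0596 and 0.0723. With 1 library left out, the log2 fold changes ran from -1.45 to -1.14 for Tnf, from -1.19 to -1.12 for Tnfrsf1b and from -1.62 to -1.23 for Tnfrsf9. With GC and length trends removed it was 2, Tnfrsf9 and Birc3, with Tnf at -0.97 and Tnfrsf1b at -0.85 below the fold limit. With those trends removed, the calls over all genes turned from 903 higher and 516 lower to 219 higher and 369 lower.

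Of the 90 other genes of the pathway, 80 could be tested in the BMM libraries, and 6 were called (7.50%), near the background of 8.46%. The called genes were spread over 4 lists. The 4 lower ones had a transcript GC content of 54.1% to 61% and the 2 higher ones of 38.8% to 42.9%. With GC and length trends removed 2 were called, and with 1 library left out 2 (without OVX replicate 2, where 1.9% of all genes were called) to 15 (without sham replicate 1, where 13.5% were). Zc3h12a, which encodes the RNase Regnase-1, fell by 1.79 on the log2 scale in OVX, from 98.9 to 141 CPM in sham to 26.7 to 40.2 CPM (SE 0.24, adjusted p = 0.00668), and was among the genes most like Tnf across samples, below. Tnip1, which encodes the A20-binding brake ABIN1, fell by 1.15 (adjusted p = 0.0117). Tnfrsf14, the receptor of LIGHT, fell by 1.32 (adjusted p = 0.0254) and Ltb, lymphotoxin beta, by 2.21 from 1.51 to 4.94 CPM in sham (adjusted p = 0.0298). Tnfrsf11b, which encodes osteoprotegerin, the decoy receptor of RANKL, rose from 7.15 to 11.1 CPM in sham to 30.9 to 45.1 CPM in OVX libraries (log2 fold change 2.01 ± 0.27 SE, adjusted p = 0.00668). Rc3h2, a roquin-type RNA-binding protein, rose by 1.07 (adjusted p = 0.0256). The lists of the death arm (10 tested) and of shedding and trafficking (8 tested) held 1 and 2 genes that passed the adjusted p, all under the fold limit. Of all genes, 13.1% passed the adjusted p. Faim2, Tnfrsf17 and Edar were below the count filter.

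**Figure D2:**
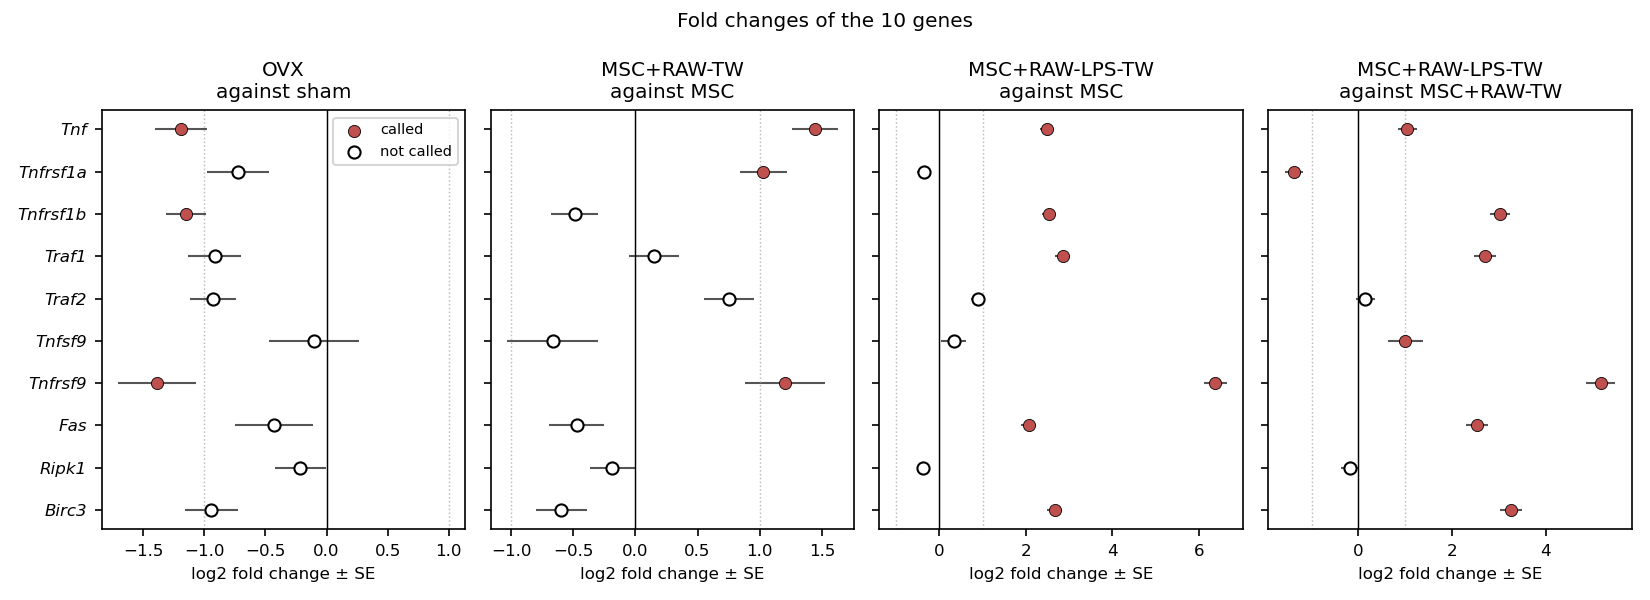
Log2 fold change with its standard error (bars) for the 10 genes in the 4 comparisons; filled points are called at a fold of at least 2 (dotted lines) and an adjusted p of at most 0.05, and each panel has its own axis. All points lie below 0 for OVX against sham, and Tnfrsf9 lies farthest to the right, at 6.37 and 5.17, in the panels for MSC+RAW-LPS-TW.

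In MSC cultures exposed to LPS-stimulated RAW264.7 cells, Tnf, the receptors Tnfrsf1b, Tnfrsf9 and Fas, and Traf1 and Birc3 were all higher than in MSCs alone. These 6 of 10 genes were called, all higher, against 10.9% of 20499 genes called in either direction and 5.85% called higher. With no fold limit 7 passed, against 20.9%. The median log2 fold change of the 10 genes was 2.28, against -0.01 over all genes. The number called was 6 or 7 in all 16 alternative analyses. The comparisons of MSC+RAW-LPS-TW with MSC and with MSC+RAW-TW share the former's libraries, so the values of both comparisons are given side by side below and neither checks the other. Against MSC+RAW-TW, 7 genes were called higher and 1 lower, on a background of 27.4% called, 15.4% higher, and the same 8 passed the adjusted p alone, against 40.2%. The median was 1.79 against 0.14 over all genes. With GC and length trends removed, that all-gene median was 0.01.

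Tnf stood at 65.2 and 70.6 CPM in the MSC libraries, at 178 and 186 CPM in the MSC+RAW-TW libraries and at 348 and 416 CPM in the MSC+RAW-LPS-TW libraries. The 3 groups were thus ordered without overlap. MSC+RAW-LPS-TW exceeded MSC 5.61-fold (log2 fold change 2.49 ± 0.16 SE, adjusted p = 1.56e-08) and MSC+RAW-TW 2.06-fold (1.04 ± 0.20 SE, adjusted p = 0.000613), and the latter fold was 0.92 on the log2 scale without MSC+RAW-LPS-TW library b. Tnfsf9 was low throughout, at 3.71 and 5.34 CPM in MSC, 3.37 and 2.1 CPM in MSC+RAW-TW, and 5.19 and 6.22 CPM in MSC+RAW-LPS-TW libraries. Its log2 fold change was 0.33 ± 0.29 (SE, adjusted p = 0.5) against MSC. Against MSC+RAW-TW it reached the limit at 1.00 ± 0.37 (SE, adjusted p = 0.0425), and the call was lost in 7 of 16 alternatives.

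The receptors parted. Tnfrsf1b was measured at 111 and 114 CPM in MSC, 80.1 and 77.0 CPM in MSC+RAW-TW, and 707 and 600.0 CPM in MSC+RAW-LPS-TW libraries. It rose 5.80-fold against MSC (log2 fold change 2.54 ± 0.16 SE, adjusted p = 1.18e-08) and 8.14-fold against MSC+RAW-TW (3.03 ± 0.22 SE, adjusted p = 7.47e-08). Tnfrsf1a was at 171 and 210 CPM in MSC, 378 and 386 CPM in MSC+RAW-TW, and 138 and 161 CPM in MSC+RAW-LPS-TW libraries. It was lowest with the LPS-stimulated cells and highest with the untreated cells. Against MSC+RAW-TW it fell by 1.38 on the log2 scale (SE 0.19, adjusted p = 3.86e-05), or by 0.89 with GC and length trends removed, and against MSC the difference of -0.36 ± 0.16 (SE) did not pass the test (adjusted p = 0.141).

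Tnfrsf9 showed the largest fold of the 10 genes in both comparisons. It was close to the detection limit in MSC, at 28 and 14 counts (0.571 and 0.411 CPM), and stood at 1.10 and 1.18 CPM in MSC+RAW-TW libraries. In MSC+RAW-LPS-TW libraries it reached 38.1 and 45.6 CPM, 82.9-fold above MSC (log2 fold change 6.37 ± 0.27 SE, adjusted p = 1.10e-10) and 36.0-fold above MSC+RAW-TW (5.17 ± 0.32 SE). 4-1BB is best known from activated T and NK cells. The 8 T and NK cell markers together reached at most 0.900 CPM in the MSC+RAW-LPS-TW libraries. Cd3e, Cd3g, Cd2 and Gzma were at 3 counts or fewer in each, and Cd3d, Nkg7, Klrb1c and Ncr1 reached at most 7, 8, 12 and 13 counts. In MSC+RAW-TW libraries all 8 were at 3 counts or fewer. Which cells carried the Tnfrsf9 RNA was not tested. Fas was at 8.90 and 10 CPM in MSC, 6.70 and 6.64 CPM in MSC+RAW-TW, and 39.2 and 39.8 CPM in MSC+RAW-LPS-TW libraries, a 4.18-fold rise against MSC (2.06 ± 0.18 SE, adjusted p = 4.75e-07) and a 5.80-fold rise against MSC+RAW-TW (2.54 ± 0.24 SE). Its ligand gene Fasl was below the count filter in both experiments.

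Of the receptor-proximal proteins, Traf1 and Birc3 rose with the LPS-stimulated cells, while Ripk1 did not pass the test. Traf1 was at 19.3 and 25.3 CPM in MSC, 24.2 and 24.4 CPM in MSC+RAW-TW, and 157 and 165 CPM in MSC+RAW-LPS-TW libraries, 7.22-fold above MSC (adjusted p = 7.69e-09) and 6.49-fold above MSC+RAW-TW (adjusted p = 3.95e-07). Birc3 was at 22.7 and 18.9 CPM, 13.4 and 13.6 CPM, and 144 and 121 CPM in the same order, 6.36-fold and 9.61-fold above them (adjusted p = 1.44e-08 and 7.27e-08). Neither gene overlapped between MSC+RAW-LPS-TW and the other groups. Traf2 was at 27.1 and 20.7 CPM in MSC, 39.0 and 40.1 CPM in MSC+RAW-TW, and 43.8 and 45.4 CPM in MSC+RAW-LPS-TW libraries. It passed the adjusted p against MSC with a fold under 2 (log2 fold change 0.89 ± 0.17 SE, adjusted p = 0.00121) and did not pass against MSC+RAW-TW (0.14 ± 0.21 SE, adjusted p = 0.602). Ripk1 stayed within 86.9 to 118 CPM in all 6 libraries, with log2 fold changes of -0.37 ± 0.15 (SE, adjusted p = 0.0892) and -0.19 ± 0.18 (SE, adjusted p = 0.422). Ripk1 shares 511 exon bases with the same-strand pseudogene Gm17084 and 241 with Serpinb6a on the other strand, and Tnfsf9 shares 192 with the opposite-strand transcript Gm11110. How reads in these bases were assigned is not stated.

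**Figure D3:**
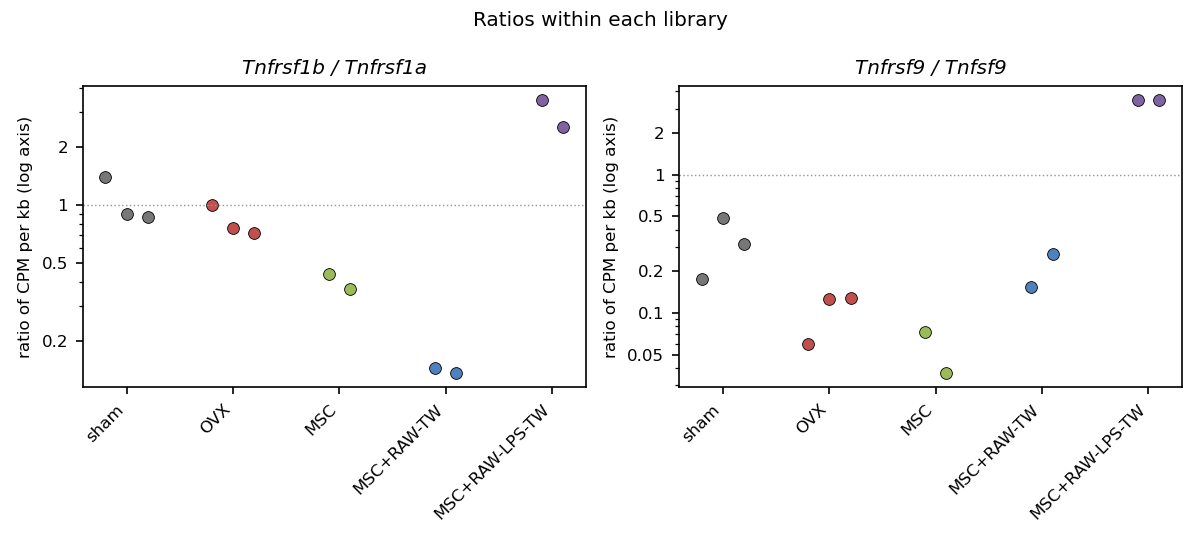
Ratio of CPM per kilobase of exon of Tnfrsf1b to Tnfrsf1a (left) and of Tnfrsf9 to Tnfsf9 (right) in each library (points), by group, on log axes with a dotted line at 1. MSC+RAW-LPS-TW libraries lie at 3.49 and 2.53 on the left and at 3.48 and 3.48 on the right, above every other library.

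Per kilobase of exon, where genes can be set against each other, the receptor ratio within a library showed the same contrast. Tnfrsf1b stood at 0.441 and 0.367 times Tnfrsf1a in MSC, at 0.144 and 0.136 times in MSC+RAW-TW, and at 3.49 and 2.53 times in MSC+RAW-LPS-TW libraries. In the BMM experiment the ratio was 1.40, 0.901 and 0.862 in sham and 1.00, 0.763 and 0.721 in OVX libraries, with overlap. The receptor 4-1BB exceeded its ligand 3.48 times in both MSC+RAW-LPS-TW libraries and stayed at 0.489 times or less in all other libraries. Tnf led the 10 genes per kilobase in sham, OVX and MSC+RAW-LPS-TW (mean level of 233 ± 29.3 CPM per kilobase, SD, n = 2, in the last), and Tnfrsf1a led in MSC (73.5 ± 10.6, SD, n = 2) and MSC+RAW-TW (147, n = 1). In sham, the next 2 levels, Tnfrsf1b at 74.2 ± 1.43 and Tnfrsf1a at 68.4 ± 20.7 CPM per kilobase (SD, n = 2), did not differ beyond their spread, and neither did they in OVX. Tnfrsf9 and Traf1 had the lowest levels in sham, at 1.45 ± 0.028 and 1.5 ± 0.11 CPM per kilobase (SD, n = 2), and in OVX, at 0.552 ± 0.152 and 0.802 ± 0.106 (SD, n = 3), and did not differ beyond the sum of their SDs in either. Nor did Birc3 and Traf2, or Ripk1 and Tnfsf9, in these groups. Tnfrsf9 was last in MSC and MSC+RAW-TW and the seventh in MSC+RAW-LPS-TW, where Tnfsf9 was last.

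With untreated RAW264.7 cells, Tnf was higher than in MSCs alone, while Traf1, Fas and Tnfrsf1b did not pass the test. Against MSC, Tnf, Tnfrsf1a and Tnfrsf9 were called higher in MSC+RAW-TW, 3 of 10 genes against 16.4% of all genes called in either direction and 6.80% called higher. Tnf rose by 1.45 ± 0.18 (log2, SE, adjusted p = 0.000194) and kept its call in all 16 alternatives. Tnfrsf1a rose by 1.03 ± 0.19 (SE, adjusted p = 0.00123) and lost its call in 4, with a value of 0.55 when GC and length trends were removed. Tnfrsf9 rose by 1.20 ± 0.32 (SE, adjusted p = 0.0118), on 45 and 41 counts against 28 and 14, and lost its call without MSC replicate 2 and in the fit on these groups alone. Traf2 (0.75 ± 0.20 SE) and Birc3 (-0.60 ± 0.21 SE) passed the adjusted p with folds under 2, so that 5 of 10 passed it, against 28.6% of all genes. The median of the 10 genes was -0.02 against -0.13 over all genes. With the trends removed, the calls over all genes went from 1394 higher and 1966 lower to 1123 higher and 1034 lower. These values rest on 1 MSC+RAW-TW sample.

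The marker sums moved across the MSC groups as well. Macrophage markers summed to 34770 to 35330 CPM in MSC+RAW-TW and 14490 to 14990 CPM in MSC+RAW-LPS-TW libraries, and stromal markers to 2641 to 2675 CPM and 4174 to 4236 CPM. Of the 13 stromal markers, 3 were called higher and 0 lower in MSC+RAW-LPS-TW against MSC. Osteoclast markers summed to 53.1 to 55.4 CPM in MSC, 91.65 to 91.76 CPM in MSC+RAW-TW and 124 to 149 CPM in MSC+RAW-LPS-TW libraries. Of 4 tested, 1 was called higher and 0 lower in MSC+RAW-LPS-TW against MSC. Most of the macrophage sum was Lyz2, which stood at 9149 to 10010 CPM in MSC+RAW-LPS-TW libraries. Of the 12 macrophage markers, 4 were called lower there relative to MSC, namely Lyz2, Cd68, C1qa and Mrc1, the last at 3.99 to 4.02 CPM against 583 to 593 CPM. Adgre1 was the 1 called higher, at 1404 to 1535 CPM against 511 to 584 CPM in MSC. Between MSC+RAW-LPS-TW and MSC+RAW-TW, 4 of the 12 were called higher and 6 lower. The median log2 fold change of the 12 was -1.12 in this comparison and -0.40 for MSC+RAW-LPS-TW against MSC. Between MSC+RAW-TW and MSC, 2 were called higher (Tyrobp and C1qa) and 0 lower, with a median log2 fold change of -0.03 over the 12. The neutrophil sum was 370 to 557 CPM in MSC+RAW-LPS-TW and 11.7 to 16.4 CPM in MSC, mostly from S100a8. Camp stood at 28.65 to 39.73 CPM in MSC+RAW-LPS-TW and at 0.469 to 0.714 CPM in MSC libraries. Of 3 neutrophil markers tested, 2 were called higher against MSC, where 5.85% of all genes were. S100a9, Ly6g, Mpo, Elane and Ltf were at 3 counts or fewer in MSC+RAW-LPS-TW libraries. Ribosomal RNA took 1.91% to 1.93% of counts in MSC+RAW-TW, 4.14% to 4.83% in MSC and 5.67% to 8.03% in MSC+RAW-LPS-TW libraries. Mitochondrially encoded genes took 0.160% to 0.165% in MSC+RAW-TW and 0.533% to 0.746% in the other MSC-experiment libraries. The part of these shifts in the TNF results was not tested.

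Of the other pathway genes, 81 could be tested in the MSC experiment. Of these, 18 were called between MSC+RAW-LPS-TW and MSC (22.2%), 13 higher and 5 lower, against 10.9% of all genes, and 30 between MSC+RAW-LPS-TW and MSC+RAW-TW (37.0%), 21 higher and 9 lower, against 27.4%. The median log2 fold changes of these genes were 0.15 and 0.37. In the list of receptor complex and ubiquitin genes, Tnfaip3, which encodes the ubiquitin-editing enzyme A20, went from 22.4 to 24.8 CPM in MSC and 11.7 to 13.1 CPM in MSC+RAW-TW to 238 to 275 CPM in MSC+RAW-LPS-TW libraries (log2 fold changes 3.44 ± 0.17 and 4.35 ± 0.24 SE). Tnip1 rose by 2.71 ± 0.16 (SE) against MSC, from 79.3 to 87.3 CPM to 514 to 582 CPM. They were the only called genes of the 21 in that comparison, where 10.9% of all genes were called. In the death arm, 1 of 10 was called against MSC, Cflar, the gene of the caspase-8 inhibitor c-FLIP, with a rise of 1.30 ± 0.15 (SE) from 172 to 187 CPM to 436 to 450 CPM.

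Of 8 shedding and trafficking genes, 2 rose against MSC, in a comparison that called 10.9% of all genes, 5.85% higher. Timp3, an inhibitor of the TNF-shedding protease ADAM17, rose by 1.59 ± 0.15 (log2, SE), and Sppl2a, which cleaves the membrane stub of TNF, by 1.11 ± 0.16 (SE). Of 10 Tnf mRNA regulators, 2 rose and 1 fell against MSC, beside the same 10.9% of all genes. Zc3h12a rose by 2.77 ± 0.16 (SE), from 26.2 to 30.8 CPM to 187 to 203 CPM, and Zfp36, the tristetraprolin gene whose product binds the AU-rich element shown above, by 1.06 ± 0.16 (SE), from 43.1 to 52.5 CPM to 98.5 to 101 CPM. Zfp36l2, its relative, fell by 1.30 on the log2 scale (SE 0.21).

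Other ligands of the family moved in both directions. Of 12 tested, 3 rose and 3 fell between MSC+RAW-LPS-TW and MSC, against 10.9% of all genes called, 5.85% higher. Tnfsf11, which encodes the osteoclast differentiation factor RANKL, was at 0.429 to 1.61 CPM in MSC, 1.39 to 1.5 CPM in MSC+RAW-TW and 14.8 to 17.8 CPM in MSC+RAW-LPS-TW libraries, a rise of 4.05 ± 0.42 on the log2 scale (SE, adjusted p = 3.11e-06). Tnfsf14, which encodes LIGHT, fell by 4.13 (SE 0.42), from 5.18 to 5.75 CPM to 0.180 to 0.446 CPM. Tnfsf12, which encodes TWEAK, fell by 1.70 (SE 0.16) and Eda by 1.16 (SE 0.39). Lta rose by 2.15 ± 0.57 (SE) at 1.35 to 2.36 CPM. Tnfsf15 was at 0 counts in the MSC+RAW-TW libraries and at 1.5 to 1.74 CPM in MSC+RAW-LPS-TW, and no fold is given. Tnfsf18, Cd40lg and Cd70 were below the count filter in both experiments, and Lta, Tnfsf8 and Tnfsf13 in the BMM experiment alone.

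Tnfrsf13c, Tnfrsf17, Tnfrsf19 and Ngfr were below the count filter in the MSC experiment. Of 20 other receptors tested, 3 rose and 1 fell against MSC, where 10.9% of all genes were called. Tnfrsf8, which encodes CD30, was at 0.176 to 0.286 CPM in MSC, at 0 counts in MSC+RAW-TW and at 9.95 to 10.1 CPM in MSC+RAW-LPS-TW libraries (log2 fold change against MSC 5.38 ± 0.39 SE). Cd40, the costimulatory receptor of antigen-presenting cells, rose by 2.45 ± 0.18 (SE) to 60.2 to 72.5 CPM. Tnfrsf14 rose by 1.26 ± 0.19 (SE). Tnfrsf13b, the receptor TACI, fell by 1.97 (SE 0.20), from 20.1 to 20.8 CPM to 5.07 to 5.4 CPM.

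**Figure D4:**
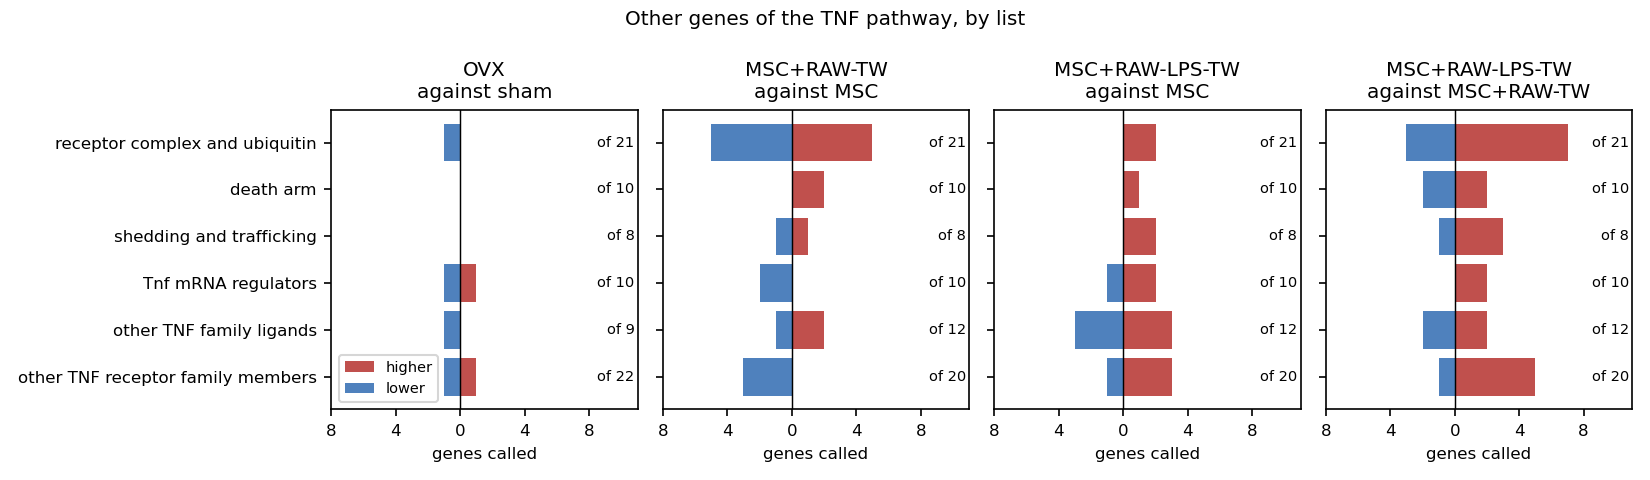
Number of genes called higher (right of 0) and lower (left of 0) in each of the 6 lists of other TNF pathway genes, for the 4 comparisons, with the number tested at the right edge. Calls in the receptor complex list number 1 of 21 for OVX against sham, 10 for MSC+RAW-TW against MSC, 2 for MSC+RAW-LPS-TW against MSC and 10 between MSC+RAW-LPS-TW and MSC+RAW-TW.

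Between MSC+RAW-TW and MSC, 22 of the 81 pathway genes were called (27.2%), 10 higher and 12 lower, against 16.4% of all genes. Those that rose had a median transcript GC content of 57.6% and those that fell of 41.6%. With GC and length trends removed 12 were called, and 10.5% of all genes. In the receptor complex list, Sharpin rose by 1.47 ± 0.20 (log2, SE), Tradd, the first adaptor of TNFR1, by 1.44 ± 0.23 and Traf5 by 1.21 ± 0.23, while Chuk, an IκB kinase, fell by 1.68, Tab3 by 1.62 and Birc2 (cIAP1) by 1.61. Fadd, the adaptor that brings caspase-8 to Fas, rose by 1.69 ± 0.22 (SE) and Diablo, an antagonist of inhibitor-of-apoptosis proteins, by 1.90 ± 0.21. Against MSC+RAW-TW, MSC+RAW-LPS-TW had lower Sharpin (-1.54 ± 0.20 SE), Tradd (-1.46 ± 0.23) and Fadd (-2.09 ± 0.22) and higher Tank (2.02 ± 0.26) and Xiap (1.76 ± 0.22), and both comparisons share the lone MSC+RAW-TW sample. Of the pathway genes called between MSC+RAW-LPS-TW and MSC+RAW-TW, the lower ones had a median transcript GC content of 55.5% and the higher ones of 44.4%.

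Across the 10 samples of both experiments, the genes whose log2 CPM was most like that of Tnf, by Pearson's correlation among 10600 genes, were Xkr8 (r = 0.970), Nfkbib (0.969), Zc3h12a (0.963), Sod3 (0.963) and Sdc1 (0.961). For this measure alone the counts of both experiments were scaled together by TMM. The points fall into few groups, so r is a description. The levels that follow are those scaled within each experiment. Nfkbib, which encodes the NF-κB inhibitor IκBβ, ranged from 42.7 to 46.6 CPM in sham, 21.3 to 28.0 CPM in OVX, 18.4 to 20.1 CPM in MSC, 48.1 to 48.6 CPM in MSC+RAW-TW and 53.2 to 74.6 CPM in MSC+RAW-LPS-TW libraries. Sod3, the extracellular superoxide dismutase, ranged from 319 to 345 CPM in sham, 118 to 153 CPM in OVX, 93.1 to 102 CPM in MSC, 272 to 279 CPM in MSC+RAW-TW and 620 to 1060 CPM in MSC+RAW-LPS-TW libraries.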

How the data were processed

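Poly(A) RNA was sequenced as read pairs from 12 directional libraries. Per the methods, the authors trimmed reads with Trim Galore 0.6.7, aligned them to GRCm38 with HISAT2 2.1.0 and tallied them per Ensembl gene with featureCounts 2.0.1. The deposited tables hold raw counts, not normalized. Strand setting and pair counting are not given in the sources used here; even numbers made up 60.0% to 71.4% of values from 1 to 20. GENCODE M21 named 55227 of 55487 identifiers.

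Counts were tested with edgeR 4.0.16 in R 4.3.3 (TMM, filterByExpr, quasi-likelihood, two-sided, Benjamini-Hochberg over all genes), with 3 residual degrees of freedom for BMMs and 2 for MSCs. Intervals cover the spread between libraries. The co-culture columns carry no usable replicate number, so these libraries are called a and b.

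The 10 genes and all lists (receptor complex and ubiquitin, death arm, shedding and trafficking, Tnf mRNA regulators, other ligands, other receptors, cell markers) were chosen with earlier results of these data known. Named are all 10 genes, up to 3 risers and 3 fallers per list and comparison, genes below the filter, and the 5 genes most like Tnf. Marker genes are named as examples. DESeq2 1.42.0, RLE scaling, other filters, separate libraries, blocks, GC and length trends (lowess, span 0.3) and left-out libraries were alternatives. The study's own fold changes were not used. Sequences are from RefSeq (GRCm38.p6) and GENCODE M21.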

Additional observations from a re-analysis of the deposited data

How the results depend on the processing

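Of 640 values (40 fold changes of the 10 genes, each under 16 alternatives), 594 kept their direction and side of the call limits, 23 lost a call, 12 gained a call and 11 turned sign. Without a fold limit, 6 of the 10 genes passed for OVX against sham and 5 for MSC+RAW-TW against MSC. Of the other pathway genes, 17 of 80 passed for OVX against sham (13.1% of all genes), and of 81, 29 for MSC+RAW-LPS-TW against MSC (20.9%), 46 relative to MSC+RAW-TW (40.2%) and 35 for MSC+RAW-TW against MSC (28.6%). With GC and length trends removed, 2 other pathway genes were called for OVX against sham (3.51% of all genes) and 12 for MSC+RAW-TW against MSC (10.5%). With all libraries separate, 10 other pathway genes were called for OVX against sham (11.5%). With 1 library left out, as given next, the share of all genes called moved in the MSC comparisons as well. The counts for the MSC groups from these fits are therefore not read as changes in the pathway alone. Each of these fits also has a group of 1 sample. Leaving out 1 library gave 0 to 5 called of the 10 genes for OVX against sham (1.9% to 13.5% of all genes), 6 to 7 for MSC+RAW-LPS-TW against MSC, 6 to 8 against MSC+RAW-TW and 2 to 4 for MSC+RAW-TW against MSC; of the other pathway genes, it gave 2 to 15 for OVX against sham (without sham replicate 1 the most, without OVX replicate 2 the fewest), 15 to 18, 31 to 37 and 19 to 24.

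Signs turned only in fold changes that were not called. For OVX against sham, Tnfsf9 was at 0.0886 with libraries separate, 0.15 with the replicate block, 0.15 with the library code of the column names as a block (an alternative chosen after seeing the data), 0.15 with trends removed, and from -0.31 to 0.54 with 1 library left out (above 0 without OVX replicate 3 or sham replicate 1), and Fas from -0.59 to 0.19 (above 0 without sham replicate 1). For MSC+RAW-TW against MSC with trends removed, Traf1 was at -0.063, Fas at 0.0090 and Ripk1 at 0.29, and Traf1 ran from -0.035 (without MSC replicate 1) to 0.36 with 1 library left out. The causes were not tested.

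Same-numbered OVX and sham libraries correlated in their deviations at 0.409, -0.026 and 0.353, not all above 0.1, so the numbers were not taken to pair the libraries; same-numbered libraries also share the library code of the column names. With the replicate block, 12 other pathway genes were called for OVX against sham, and 13.4% of all genes. For the MSC groups, no pairing by replicate number was possible because the co-culture columns carry no usable numbers. With the library code as a block there (chosen after seeing the data), 6 of the 10 genes were called for MSC+RAW-LPS-TW against MSC (12.7% of all genes), 8 relative to MSC+RAW-TW (35.2%) and 3 for MSC+RAW-TW against MSC (23.9%). Genes at a few counts, such as Tnfrsf9 in MSC, are limited by depth.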
